A study of Mus musculus with 109 samples.

Results

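The response of retinas without Sarm1 to IL1A+TNF was measured by comparing, in each Sarm1-/- mouse, the eye injected with both cytokines with the contralateral eye injected with PBS. The comparison holds the 12 retinas that the labels give as Sarm1-deficient, out of 109 retinas in the series, and they came from 6 of 64 mice (3 female and 3 male). All 12 belonged to the group collected 2 days after injection and to the batch labelled 2, and both eyes of every mouse were present. Each eye had received 2 μL intravitreally, either PBS or TNF (0.05 μg/μL) together with IL1A (0.1 μg/μL), and the mice were 2 to 6 months old per the study's methods. The Sarm1-/- mice carry a germline deficiency that is not limited to one cell type, and the WT mice used for the comparison of genotypes were C57BL/6J, with 5 PBS and 6 IL1A+TNF retinas in batch 2. RNA was taken from the whole retina, so a lower level of a cell type's genes can stand for fewer of those cells or for less of that RNA in each cell, and these cannot be told apart. All 3 females (replicates 3, 4 and 5) were treated in the left eye, and of the 3 males replicates 1 and 6 were treated in the right eye and replicate 2 in the left. With 3 mice of each sex, a difference between the sexes cannot be told apart from one between single mice, and sex and treated side coincided in all mice but male replicate 2.

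SARM1 is an enzyme of axons that destroys NAD+ once the labile NAD-synthesizing enzyme NMNAT2 is lost, and mice without it keep severed axons far longer than WT mice. IL1A signals through IL1R1 and the adaptor MYD88, and TNF through TNFRSF1A and TNFRSF1B. Both pathways release NF-kB into the nucleus, and in the retina they act on microglia, astrocytes, Müller glia and vessels as well as on retinal ganglion cells (RGCs), the neurons whose axons form the optic nerve.

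Levels are given in CPM, read counts scaled to a common library size after TMM normalization, in the order of replicates 3, 4 and 5 for females and 1, 2 and 6 for males. Where a sex has a pair of triplets, the PBS eyes come before the IL1A+TNF eyes. Changes are given as log2 fold changes of IL1A+TNF over PBS (log2FC), and male minus female differences are differences of the log2FC. Sarm1 measured 44.6, 45.7 and 44.4 CPM in the PBS eyes of the females and 26.8, 33.01 and 42.5 CPM in their treated eyes. In the males Sarm1 measured 37.7, 38.2 and 53.6 CPM in PBS eyes and 47.3, 34.4 and 44.2 CPM in treated eyes. Reads were thus counted on Sarm1 in every Sarm1-/- retina, at a lower level than in the WT retinas of batch 2, which held 107 to 127 CPM after PBS (n = 5) and 85.3 to 110.2 CPM after IL1A+TNF (n = 6). The genotypes did not overlap, and each library matched its genotype label, although a count over the whole gene does not show which exons remain. Sarm1 fell with treatment in the Sarm1-/- retinas (log2FC −0.23, SE 0.09, limma FDR 0.0279).

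Library totals ran from 47738842 to 70099610 counts. Several stood apart in their content, and these values bear on the gene groups below. The PBS eyes of male replicates 1 and 2 held summed neutrophil genes of 110 and 104 CPM and Lcn2 of 624 and 772 CPM, where the other 4 PBS eyes held 5.57 to 19.4 CPM and 59.0 to 91.6 CPM. Summed lens genes reached 6679 CPM in the PBS eye of replicate 1, 7516 CPM in the treated eye of replicate 5 and 669 CPM in that of replicate 6, against 36.5 to 142 CPM in the other 9 retinas. The treated eyes of replicates 4 and 5 had mitochondrial RNA shares of 2.11% and 2.10%, below the 2.97% to 3.81% of the other 10 retinas. In the treated eye of male replicate 6, Xist was at 167 CPM, while the other 40 male libraries of day 2 held at most 7.19 CPM and the female libraries at least 1545 CPM. The mean mitochondrial share was 2.90% in treated and 3.47% in PBS eyes and the share of the 50 most abundant genes 13.3% and 15.5%, each lower in the treated eye of 5 of 6 mice. The same number had a lower total count, and 3 of 6 had more genes detected. No p passed 0.05, and a difference in 1 measure alone could not have passed it after adjustment, so the tests do not show that the eyes were alike (exact paired permutation tests, two-sided, p = 0.0938, 0.0625, 0.156 and 0.781, adjusted over the 4 tests 0.188, 0.188, 0.208 and 0.781; the smallest p that 6 pairs allow is 0.031). Rod, cone, bipolar, amacrine, horizontal, RGC and Müller glia genes were checked as markers of the labelled tissue, and no gene of these lists was at 0 in all 12 retinas.

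IL1A+TNF changed a large share of the genes measured in retinas without Sarm1. Of 20154 genes tested, limma called 8768 differentially expressed genes (DEGs) at an FDR under 0.05 (43.5%), of which 4289 (21.3%) were higher and 4479 (22.2%) lower, and the median log2FC over all genes was 0.01. Among them 1883 changed by 1 log2 unit or more, 834 upward and 1049 downward. This test took its estimate of the spread from all 81 day-2 retinas, most of them WT. The WT retinas were 36 given PBS, 16 given IL1A+TNF, and others given IL1A alone or TNF alone. When the 12 Sarm1-/- retinas were tested alone, 879 genes were called, and with the pairing of eyes as a replicate block, mouse being a fixed factor, limma and edgeR called 0 genes, although 5374 and 5276 of 18633 had an unadjusted p under 0.05. The levels of treated and PBS retinas did not overlap for 1049 genes (5.2%). Without replicates 4 and 5, whose eyes differed from each other in the most genes, the limma count of DEGs was 995, without replicate 4 alone it was 5736, and without replicates 1 and 2 it was 10139. Counts of gene lists by the same test are given below with and without replicates 4 and 5, a choice made after the data had been seen. Each list count of the full fit stands beside the 21.3% of all genes that were higher and the 22.2% that were lower. Counts without replicates 4 and 5 stand beside far smaller shares, with 559 of 20459 genes higher and 436 lower in that fit (4.86% called).

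The 6 mice responded to very different extents. Among 15203 genes, at least a 2-fold difference between the eyes of one mouse was found for 206 genes in male replicate 1, 481 in male replicate 2 and 635 in male replicate 6. In the females the same count was 1798 in replicate 3, 3758 in replicate 4 and 3788 in replicate 5. Every female thus exceeded every male, and whether sex, treated side or single mice set these counts apart was not tested. In the 5 WT mice of batch 2 with both eyes, the count ran from 876 to 1816, above all 3 Sarm1-/- males and below the females 4 and 5.

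**Figure D1:**
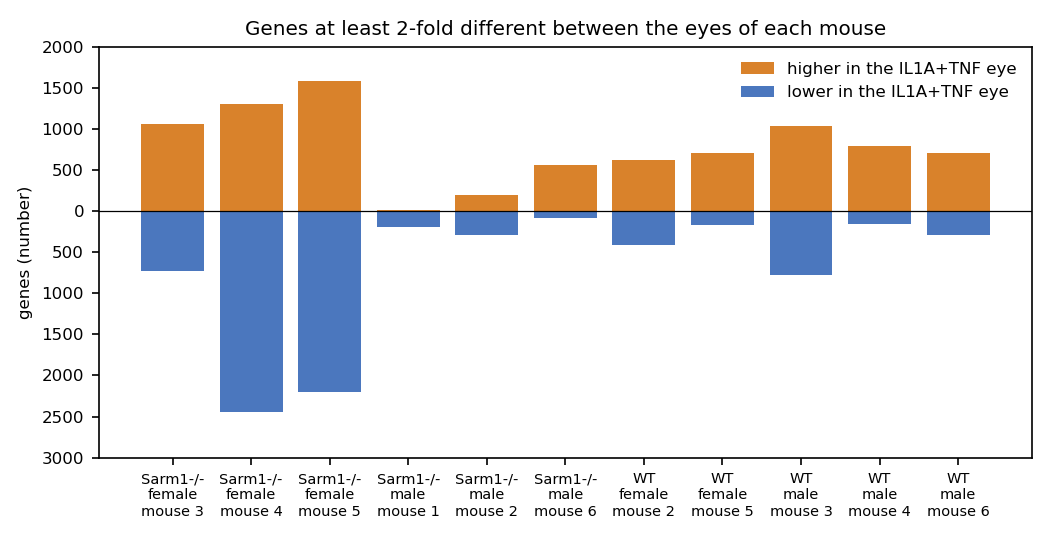
Number of genes with at least a 2-fold difference between the IL1A+TNF and the PBS eye of one mouse (y axis, genes higher and lower, out of 15203), for the 6 Sarm1-/- and 5 WT mice of batch 2 (x axis). Sarm1-/- females 4 and 5 reach 3758 and 3788 genes, while the Sarm1-/- males stay between 206 and 635.

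Fitted within the 12 retinas, the response of the females and of the males was tested separately and against each other. The median log2FC over all genes was −0.01 in females and −0.0019 in males. In females 9999 of 18633 genes were called, 4820 higher (25.9%) and 5179 lower (27.8%). In males limma called 0 genes (1103 at an unadjusted p under 0.05, smallest FDR 0.164). With mouse as a fixed factor in males limma called 0 (952 at an unadjusted p under 0.05) and edgeR 0 (966). The difference itself passed the test for 5390 genes, 3120 with a higher log2 fold change in males (16.7%) and 2270 with a lower one (12.2%). Counts of sex differences in the gene lists below stand beside these 2 shares. With mouse as a fixed factor it was called for 3387 genes by limma and 2882 by edgeR. Leaving out male replicate 1 took the count to 911, male replicate 2 to 1766, male replicate 6 to 3103, female replicate 4 to 2375 and female replicate 5 to 2021, and leaving out female replicate 3 raised it to 7485.

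Because the WT groups also held both sexes, effects by sex were fitted in the 81 retinas, a fit added after the data had been seen. It called 10883 genes in Sarm1-/- females and 26 in Sarm1-/- males (9 higher, 0.0447%, and 17 lower, 0.0844%), against 9708 in WT females and 8362 in WT males. The sex difference was called for 7147 genes in Sarm1-/- retinas and for 0 genes in WT retinas by limma (444 at an unadjusted p under 0.05) and 0 by edgeR (499). The 3-way difference of genotype, treatment and sex was called for 5539 genes, 3108 higher (15.4%) and 2431 lower (12.1%), where higher means that the log2 fold change of males lay further above that of females in Sarm1-/- than in WT retinas. In batch 2 alone it was called for 1606 genes.

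**Figure D2:**
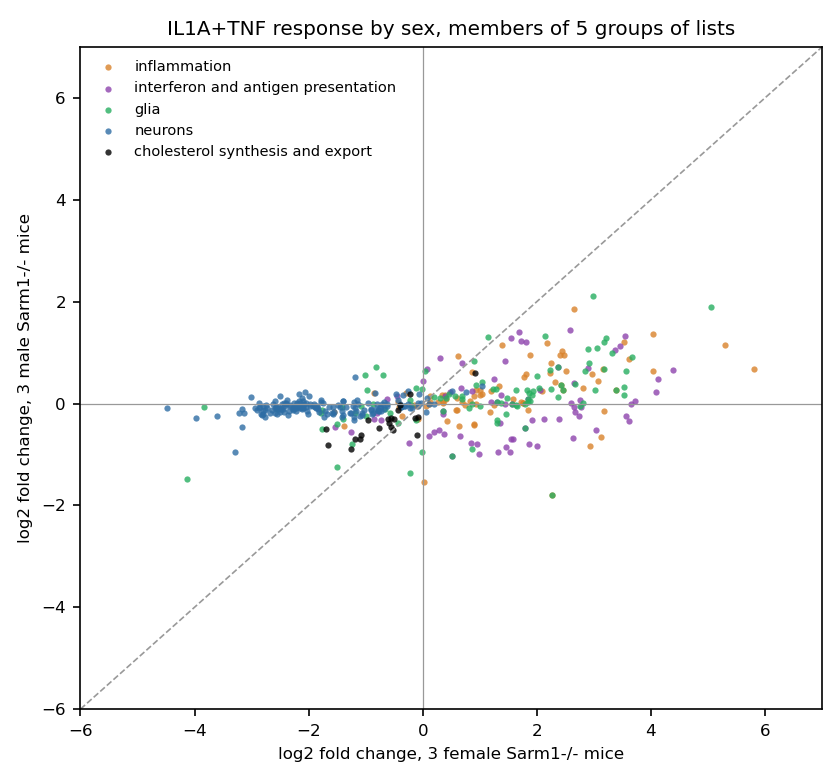
Log2 fold change of IL1A+TNF over PBS in Sarm1-/- females (x axis, 3 mice) against Sarm1-/- males (y axis, 3 mice). Each point is a gene of the inflammation, interferon and antigen presentation, glia, neuron or cholesterol lists, and other genes are not drawn. Changes of these genes spread widely along the female axis and narrowly along the male axis. Among all 18633 genes tested within the 12 retinas, 0 were called in males.

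Cholesterol genes fell in both sexes. Cells make cholesterol through the mevalonate pathway, whose enzymes are switched on together by SREBP2, and oxysterol-activated LXR switches on its export. Of 21 tested genes of cholesterol synthesis and export, 18 fell and 1 rose in the Sarm1-/- retinas (median log2FC −0.47), beside 22.2% of all genes falling. Without replicates 4 and 5 the counts were 16 and 1. In 12 of the 21 the treated and PBS levels did not overlap, beside 5.2% of all genes. The median was −0.56 in females and −0.38 in males, and 5 of the 21 had a called difference between the sexes, each with a higher log2FC in males, beside 16.7% of all genes. In the fit of 81 retinas 9 of the 21 fell in males, beside 0.0844% of all genes, and Stard4, Acat2 and Hsd17b7, which carry or make sterols or their precursors, also fell there. Acat2 and Hsd17b7 were chosen for mention after their values were seen.

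Hmgcs1 measured 184, 211 and 228 CPM in the PBS eyes of the females and 116, 92.9 and 89.7 CPM in their treated eyes. In the males Hmgcs1 measured 190.1, 270.0 and 244 CPM in PBS eyes and 176, 136 and 122 CPM in treated eyes. Hmgcs1, which makes the HMG-CoA from which cholesterol synthesis starts, fell in 6 of 6 mice (log2FC −0.88, SE 0.10, limma FDR 3.04e-09), with no overlap between treated and PBS eyes, and it was called in males alone in the fit of 81 retinas (log2FC −0.70, FDR 0.00722). Insig1 measured 104, 111 and 114 CPM in the PBS eyes of the females and 45.2, 29.7 and 32.8 CPM in their treated eyes. In the males Insig1 measured 94.6, 118 and 126 CPM in PBS eyes and 82.5, 58.5 and 53.2 CPM in treated eyes. Insig1, a sterol sensor that holds SREBP in the endoplasmic reticulum, fell by 1.22 log2 units (SE 0.13, FDR 1.56e-10). Stard4, which carries cholesterol through the cytosol and is not on the list, had the smallest FDR of all genes (log2FC −0.87, SE 0.09, limma FDR 3.17e-11) and lay at 45.97, 51.1 and 51.9 CPM and 23.4, 19.7 and 20.8 CPM in females. Its males went from 44.4, 53.7 and 49.4 CPM to 40.5, 30.6 and 31.4 CPM, a smaller difference than in females (male minus female 0.73, FDR 0.0118). The 1 member that rose was Abca1, the LXR-driven exporter of cholesterol (log2FC 0.77, SE 0.14, FDR 8.32e-06), with 82.96, 76.5 and 82.6 CPM and 166, 161 and 140.4 CPM in females and 92.3, 84.9 and 66.1 CPM and 101, 125 and 143 CPM in males. Its partner Abcg1 was not called (log2FC −0.01, FDR 0.928).

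The sterol regulatory element to which SREBP2 binds was sought by its core letters TCACNCCAC, on both strands, in the 250 bases before each gene's start in RefSeq (GRCm38.p6). It was found in 1 of 15 windows of the cholesterol list (6.67%, windows of 13 genes) and in 1.05% of 32851 windows of all genes. The window with the match is that of Hmgcs1, chr13:119690101-119690350, plus strand, shown because Hmgcs1 fell in every mouse, with the match in capitals.
Hmgcs1: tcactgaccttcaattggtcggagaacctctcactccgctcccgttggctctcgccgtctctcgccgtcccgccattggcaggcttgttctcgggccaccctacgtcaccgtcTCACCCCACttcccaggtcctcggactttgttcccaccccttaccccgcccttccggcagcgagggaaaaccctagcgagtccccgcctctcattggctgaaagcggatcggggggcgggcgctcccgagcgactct

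Hmox1, the heme oxygenase that frees iron and carbon monoxide from heme, had the smallest FDR after Stard4. Hmox1 measured 8.07, 10.6 and 12.02 CPM in the PBS eyes of the females and 207, 454 and 578 CPM in their treated eyes. In the males Hmox1 measured 17.2, 16.99 and 10.5 CPM in PBS eyes and 28.8, 87.9 and 124 CPM in treated eyes. All 6 treated eyes lay above all PBS eyes (log2FC 3.73, SE 0.38, limma FDR 4.97e-11). The rise was smaller in males (male minus female −2.99, FDR 0.0411) and was called in them in the fit of 81 retinas (log2FC 2.20, FDR 0.00665). Siglech, a lectin of microglia and plasmacytoid dendritic cells, fell by 2.71 log2 units (SE 0.31, FDR 1.16e-09), from 3.24, 2.96 and 2.897 CPM to 0.0731, 0.316 and 0.2 CPM in females and from 1.998, 1.92 and 2.78 CPM to 1.13, 0.442 and 0.936 CPM in males. Arg1, the arginase of alternatively activated macrophages, rose by 4.42 log2 units (SE 0.53, FDR 4.33e-09). Arg1 measured 2.46, 3.302 and 3.58 CPM in the PBS eyes of the females and 87.2, 268 and 309 CPM in their treated eyes. In the males Arg1 measured 11.2, 6.51 and 1.47 CPM in PBS eyes and 18.5, 46.7 and 42.96 CPM in treated eyes. Every treated eye held more Arg1 than every PBS eye, and the treated females held more than the treated males. Ncf1, a subunit of the phagocyte oxidase, Cebpa, a myeloid transcription factor, and Arl11, a GTPase of macrophages, also rose (log2FC 3.21, 1.70 and 2.49, FDR 3.89e-09, 2.65e-09 and 1.16e-09), each higher in 6 of 6 mice. Gad1-ps, with a log2FC of 2.99, is a pseudogene and may share reads with its parent gene.

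**Figure D3:**
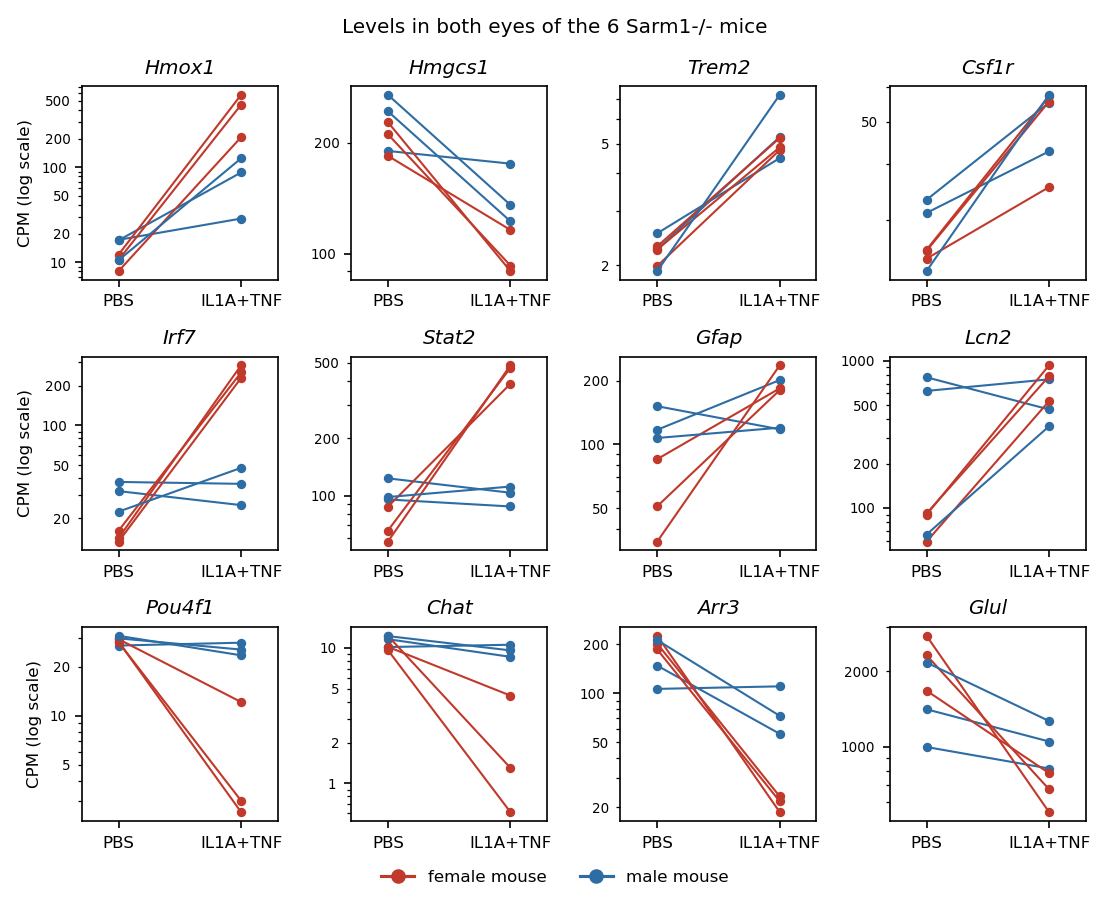
Levels of 12 genes (y axis, CPM, log scale) in the PBS and the IL1A+TNF eye of each Sarm1-/- mouse (x axis), with a line joining the eyes of a mouse and colors for sex. Hmox1, Trem2 and Csf1r are higher and Hmgcs1 is lower after treatment in all 6 mice, while Irf7, Stat2, Pou4f1 and Chat move mainly in the females.

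Most receptors and adaptors of IL1 and TNF rose. Of 20 tested, 17 were higher and 0 lower (median log2FC 0.46), and the median was 0.79 in females and 0.04 in males. The count without replicates 4 and 5 was 4 higher. The largest rise was that of Il1r2, the decoy receptor for IL1 (log2FC 3.42, SE 0.59, FDR 4.09e-06), followed by Irak3, a kinase homolog that brakes IL1 signaling (log2FC 1.60, SE 0.25, FDR 6.97e-07). Irak3 measured 1.47, 1.98 and 3.65 CPM in the PBS eyes of the females and 9.32, 16.6 and 14.1 CPM in their treated eyes. In the males Irak3 measured 4.18, 4.86 and 2.57 CPM in PBS eyes and 5.02, 6.66 and 6.196 CPM in treated eyes. For Irak3 all 6 treated eyes lay above all PBS eyes, narrowly so in the males. The TNF receptor Tnfrsf1b, found on immune cells and vessels, rose by 1.57 log2 units (FDR 2.55e-06) and the broadly expressed Tnfrsf1a by 0.63 (FDR 0.00254). Tnfrsf1a was at 22.2, 35.3 and 35.4 CPM and 60.8, 84.6 and 80.95 CPM in females and at 44.6, 46.6 and 34.8 CPM and 41.2, 42.7 and 39.3 CPM in males, so that the treated levels lay within the PBS range in the males and above it in the females (male minus female −1.27, FDR 0.00737). The adaptor Myd88 had a log2FC of 1.76 in females and 0.02 in males (difference FDR 0.000809). Il1r1, the signaling receptor for IL1A, was not called, at 18.3, 28.2 and 29.2 CPM after PBS and 25.2, 17.7 and 17.8 CPM after treatment in females and 33.9, 29.1 and 28.1 CPM and 31.2, 22.1 and 23.9 CPM in males (log2FC −0.29, FDR 0.1101), and 5 of the 6 mice were lower in the treated eye.

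Among NF-kB subunits and their feedback genes, 12 of 18 rose and 2 fell (median log2FC 0.33). For this list, leaving out replicates 4 and 5 gave 2 higher and 1 lower. Nfkbia, the inhibitor that NF-kB induces against itself, rose by 0.37 log2 units (SE 0.13, FDR 0.0168), with a log2FC of 0.75 in females and −0.02 in males. Tnfaip3, which encodes the ubiquitin-editing brake A20, fell instead (log2FC −0.90, SE 0.16, FDR 8.46e-06). Tnfaip3 measured 314, 299.6 and 248 CPM in the PBS eyes of the females and 93.7, 123 and 123 CPM in their treated eyes. In the males Tnfaip3 measured 202, 237 and 267 CPM in PBS eyes and 210.0, 159.8 and 152 CPM in treated eyes. Treated and PBS ranges of Tnfaip3 were separate in the females and overlapped in the males.

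Cytokine genes rose, with 10 of 14 higher and 0 lower (median log2FC 1.04, 1.81 in females and 0.15 in males). Among them 2 were higher without replicates 4 and 5. Il1b measured 1.84, 1.35 and 2.67 CPM in the PBS eyes of the females and 20.7, 36.4 and 41.99 CPM in their treated eyes. In the males Il1b measured 16.8, 13.3 and 0.6701 CPM in PBS eyes and 11.7, 34.3 and 8.31 CPM in treated eyes. Il1b, which encodes another ligand of IL1R1, rose by 2.79 log2 units (SE 0.52, FDR 1.52e-05), and the PBS eyes of replicates 1 and 2, with their high neutrophil sums, already held as much as some treated eyes. Tnf itself stayed at or under 1.26 CPM in every retina, with a log2FC of 1.78 (SE 0.37, FDR 6.46e-05). Lif, a gp130 cytokine that Müller glia release after injury, measured 2.27, 2.59 and 6.89 CPM and 14.7, 40.1 and 51.2 CPM in females and 4.59, 9.54 and 8.501 CPM and 3.89, 3.35 and 6.76 CPM in males. It rose in females (log2FC 3.12, FDR 0.00339) and had a log2FC of −0.65 in males, and the difference passed the test (FDR 0.0212). Csf1, the growth factor of microglia and macrophages, had a log2FC of 2.46 in females and 0.26 in males (difference FDR 0.00299). It was chosen after its values were seen.

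Chemokines, which draw leukocytes, gave 6 of 16 higher and 1 lower, beside 21.3% and 22.2% of all genes (median log2FC 0.58). No chemokine was called without replicates 4 and 5 (0 higher and 0 lower). Cxcl2, a neutrophil attractant, rose by 3.39 log2 units (SE 0.82, FDR 0.000479) and Ccl3, a macrophage chemokine, rose by 2.41 log2 units (SE 0.46, FDR 1.92e-05). Ccl2 measured 1.47, 1.29 and 2.11 CPM in the PBS eyes of the females and 5.699, 18.6 and 32.2 CPM in their treated eyes. In the males Ccl2 measured 12.2, 4.97 and 2.26 CPM in PBS eyes and 8.44, 3.09 and 4.42 CPM in treated eyes. Ccl2, the monocyte attractant, rose over all 6 mice (log2FC 1.53, FDR 0.0143), but 2 of the 3 males were lower in the treated eye. Cx3cl1, the neuronal ligand of the microglial receptor CX3CR1, was the member that fell (log2FC −0.84, SE 0.16, FDR 1.31e-05), from 89.3, 94.9 and 96.4 CPM to 65.4, 16.5 and 31.8 CPM in females and from 98.7, 103 and 96.7 CPM to 92.1, 90.2 and 83.9 CPM in males. Cxcl10, a chemokine induced by interferon and NF-kB, was not called over the 6 mice (log2FC 0.21, FDR 0.793). Cxcl10 measured 0.324, 0.8298 and 1.61 CPM in the PBS eyes of the females and 1.94, 5.65 and 5.38 CPM in their treated eyes. In the males Cxcl10 measured 1.35, 3.62 and 5.28 CPM in PBS eyes and 0.954, 0.938 and 0.5803 CPM in treated eyes. It was higher in every female and lower in every male, and the difference of the sexes was called (male minus female −4.06, SE 1.0, FDR 0.0154).

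An NF-kB core, GGNNTTTCC on either strand, lay in 5 of 11 chemokine windows (45.5%) and in 4.93% of all windows. That of Cxcl10, chr5:92348890-92349139, minus strand, is shown for the gene whose direction differed between the sexes. The match is in capitals and reads on the other strand.
Cxcl10: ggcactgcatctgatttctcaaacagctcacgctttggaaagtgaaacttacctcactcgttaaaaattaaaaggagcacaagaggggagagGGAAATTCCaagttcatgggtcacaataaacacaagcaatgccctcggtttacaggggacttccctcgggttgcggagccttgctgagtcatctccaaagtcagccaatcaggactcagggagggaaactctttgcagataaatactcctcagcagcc

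Interferon genes separated the females from the males. Interferons signal through STAT2 and IRF factors to genes that carry an interferon-stimulated response element (ISRE). Of 24 tested genes of the type I interferon response 12 rose and 0 fell, with a median of 0.71 in all 6 mice, 1.96 in females and −0.34 in males. This list had 0 members higher without replicates 4 and 5, 5 without any one of the 3 females and 18 without replicates 1 and 2. Over all genes, 559 of 20459 were higher without replicates 4 and 5 and 5120 of 20494 without replicates 1 and 2. Without replicate 3, 4 or 5 the counts over all genes were 3460 of 20295, 2490 of 20295 and 2630 of 20303. The sex difference was called for 21 of the 24, each with a lower change in males, beside 12.2% of all genes. The 3-way difference was called for the same number, 21, beside 12.1%. Irf7 measured 13.3, 14.1 and 16.1 CPM in the PBS eyes of the females and 228, 285 and 251 CPM in their treated eyes. In the males Irf7 measured 31.98, 37.5 and 22.4 CPM in PBS eyes and 25.1, 36.3 and 47.9 CPM in treated eyes. Irf7, which amplifies the type I interferon response, was raised to a like level in each female, and in 2 of the 3 males the treated level lay within the male PBS range. Its log2FC was 4.10 in females (FDR 1.79e-05) and 0.22 in males (FDR 0.994), and the difference was −3.88 (SE 0.35, FDR 0.000581). Stat2 measured 57.4, 65.6 and 87.5 CPM in the PBS eyes of the females and 484, 469.6 and 387 CPM in their treated eyes. In the males Stat2 measured 95.6, 123 and 98.4 CPM in PBS eyes and 87.8, 104 and 112 CPM in treated eyes. Stat2 showed the same separation, with a log2FC of 2.65 against −0.06 (difference FDR 0.000581), and it was chosen after its values were seen. Irf1 went from 8.15, 12.04 and 12.4 CPM to 64.1, 68.6 and 58.99 CPM in females and from 17.3, 18.5 and 12.8 CPM to 14.03, 16.9 and 17.4 CPM in males (difference FDR 0.000622). In the 5 paired WT mice of batch 2, Irf7 ran from 10.8 to 26.6 CPM after PBS and from 21.6 to 207 CPM after treatment, with both sexes among them.

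Usp18, which shuts down interferon receptor signaling, rose by 1.68 log2 units (SE 0.56, FDR 0.0105), and Ifitm3, a membrane protein that blocks viral entry, was not called (log2FC −0.09, FDR 0.794). Isg15, a ubiquitin-like interferon product chosen after its values were seen, was at 1.69, 2.07 and 2.99 CPM and 4.11, 4.33 and 5.08 CPM in females and 3.15, 8.93 and 4.44 CPM and 2.14, 2.96 and 2.36 CPM in males. It was higher in the treated eye of every female and lower in that of every male (log2FC 0.99 and −0.98, difference FDR 0.0184), and over all 6 mice it was not called (log2FC 0.02, FDR 0.9603).

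The ISRE core AAANNGAAA, on either strand, was found in 10 of 21 windows of the type I interferon list (47.6%, windows of 18 genes) and in 9.37% of all windows. Among the 11 chemokine windows it lay in 1 (9.09%), that of Cxcl10 printed above, where it is not in capitals. Isg15 (chr4:156200819-156201068, minus strand) holds 3 overlapping matches, and Stat2 (chr10:128270248-128270497, plus strand) holds 1, read on the other strand. They are shown as the promoters of the response that divided the mice, with the matches in capitals.
Isg15: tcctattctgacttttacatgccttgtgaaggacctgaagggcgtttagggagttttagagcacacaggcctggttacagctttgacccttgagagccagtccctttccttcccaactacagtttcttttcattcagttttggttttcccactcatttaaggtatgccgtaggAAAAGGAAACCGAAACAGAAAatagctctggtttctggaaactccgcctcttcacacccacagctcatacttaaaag
Stat2: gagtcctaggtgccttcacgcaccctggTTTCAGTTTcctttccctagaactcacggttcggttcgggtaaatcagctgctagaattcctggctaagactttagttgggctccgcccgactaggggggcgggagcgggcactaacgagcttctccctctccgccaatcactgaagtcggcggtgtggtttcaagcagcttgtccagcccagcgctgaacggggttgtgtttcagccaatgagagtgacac

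The GTPases induced by interferon gamma, which attack vacuoles of intracellular pathogens, gave 4 of 12 higher and 1 lower (median log2FC 0.59). Of all genes 21.3% were higher and 22.2% lower. The GTPases had a median of 1.67 in females and −0.56 in males. The sex difference was called for 10 of them, each with a lower change in males, beside 12.2% of all genes. Neither rises nor falls were called among them without replicates 4 and 5 (0 and 0). Gbp2, also used as an A1 astrocyte marker, was not called over the 6 mice (log2FC −0.28, FDR 0.295). It measured 7.52, 13.2 and 15.4 CPM and 16.4, 15.3 and 20.3 CPM in females and 26.4, 49.9 and 24.9 CPM and 17.05, 18.1 and 12.1 CPM in males, and it fell in males in the fit of 81 retinas (log2FC −1.03, FDR 0.0335). Gbp4, the member that fell, went from 1.64, 1.96 and 2.22 CPM to 1.63, 0.799 and 0.9801 CPM in females and from 1.71, 4.23 and 2.24 CPM to 2.05, 2.26 and 1.74 CPM in males (log2FC −0.57, FDR 0.0374).

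MHC class I genes, which display peptides to cytotoxic T cells, rose in 12 of 12 cases, with a median of 0.92, 1.65 in females and 0.25 in males. For all 12 the sex difference was called, with a lower change in males, beside 12.2% of all genes. Class I genes numbered 1 higher without replicates 4 and 5. Nlrc5, the transactivator of class I genes, rose by 2.51 log2 units (SE 0.60, FDR 0.000439) and the peptide transporter Tap1 by 2.32 (SE 0.57, FDR 0.000632). H2-D1 measured 63.2, 78.3 and 103 CPM in the PBS eyes of the females and 428, 433 and 411 CPM in their treated eyes. In the males H2-D1 measured 137, 151 and 94.5 CPM in PBS eyes and 152, 257 and 218 CPM in treated eyes. Treated and PBS levels of H2-D1, a class I heavy chain, did not overlap (log2FC 1.56, SE 0.29, FDR 1.04e-05), although male replicate 1 treated lay next to male replicate 2 after PBS. Of 8 genes of MHC class II, which present to helper T cells, 5 rose and 0 fell, the medians were 1.49 in females and 1.02 in males, and 0 had a called sex difference. Class II genes numbered 1 higher without replicates 4 and 5. Cd74, the invariant chain, was at 5.75, 13.1 and 10.9 CPM and 43.9, 32.2 and 29.2 CPM in females and at 22.4, 21.2 and 9.04 CPM and 24.7, 35.2 and 68.04 CPM in males (log2FC 1.53, SE 0.55, FDR 0.0191). Its highest level was in the treated eye of male replicate 6. Ciita, the class II transactivator, was not called (log2FC 0.24, FDR 0.357).

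Many genes used as markers of activated microglia rose, and RNA of the whole retina does not show which cells held them. Of 20 genes of disease-associated microglia, a state seen in neurodegeneration, 14 rose and 2 fell (median log2FC 1.02, 1.26 in females and 0.51 in males). The lowest log2FC in the list was that of Gpnmb (−1.37), and that of Igf1 came next. The sex difference was called for 9 of the 20, 7 with a lower log2FC in males (12.2% of all genes) and 2 with a higher one (16.7%). Microglia genes of this list numbered 10 higher and 0 lower without replicates 4 and 5. Trem2 measured 1.99, 2.25 and 2.31 CPM in the PBS eyes of the females and 4.77, 4.87 and 5.22 CPM in their treated eyes. In the males Trem2 measured 2.54, 2.26 and 1.91 CPM in PBS eyes and 4.49, 5.26 and 7.23 CPM in treated eyes. Trem2, the lipid receptor that drives this state, was higher in all 6 treated eyes than in any PBS eye (log2FC 1.23, SE 0.26, FDR 6.17e-05), with a log2FC of 1.14 in females and 1.3 in males (male minus female 0.16, SE 0.28). Csf1r measured 24.5, 25.5 and 25.6 CPM in the PBS eyes of the females and 35.5, 55.6 and 57.1 CPM in their treated eyes. In the males Csf1r measured 31.1, 33.3 and 22.9 CPM in PBS eyes and 42.8, 55.3 and 57.6 CPM in treated eyes. The survival receptor Csf1r likewise had no overlap (log2FC 0.88, SE 0.18, FDR 4.75e-05), and its male minus female difference was −0.07 (SE 0.28). Lyz2, the lysozyme of macrophages, rose by 2.57 log2 units (SE 0.58, FDR 0.000187), from 26.6, 35.6 and 26.95 CPM to 229, 266 and 229.5 CPM in females and from 65.7, 51.9 and 18.8 CPM to 109.6, 233 and 211 CPM in males. Clec7a, a receptor for fungal glucans induced in this state, rose in females (log2FC 3.05) and had a log2FC of 1.09 in males (difference FDR 0.0362).

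Homeostatic microglia genes gave 4 higher and 1 lower of 12, beside 21.3% and 22.2% of all genes (median log2FC −0.01). Their median was −0.22 in females and 0.42 in males. Cx3cr1, the fractalkine receptor, was at 11.4, 11.8 and 13.8 CPM and 11.8, 6.69 and 5.92 CPM in females and 15.4, 16.6 and 11.9 CPM and 22.2, 19.2 and 23.2 CPM in males. It was lower in treated eyes of females 4 and 5 and higher in those of all 3 males, and the difference was called (male minus female 1.25, FDR 0.0135). P2ry12 (log2FC 0.15, FDR 0.315) and Tmem119 (log2FC −0.41, FDR 0.0667), both surface markers of resting microglia, were not called. Toll-like receptors and their helpers, which sense microbial products, gave 13 of 14 higher and 0 lower, with medians of 1.84 in females and 0.75 in males. Of the 14, 5 were higher without replicates 4 and 5, and of the 12 homeostatic genes 3 were higher and 1 lower.

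Complement genes did not move one way, with 6 of 18 higher and 4 lower (median log2FC −0.00024), beside 21.3% and 22.2% of all genes. Complement counts were 6 and 0 without replicates 4 and 5. C1qa, which starts the classical cascade, rose (log2FC 0.62, SE 0.18, FDR 0.00405), from 11.9, 12.9 and 11.97 CPM to 18.2, 13.95 and 14.7 CPM in females and from 15.7, 13.9 and 11.9 CPM to 25.97, 24.4 and 27.4 CPM in males. Its change was larger in the males (male minus female 0.59, FDR 0.0299). C3, the central component and an A1 marker, was not called (log2FC 0.79, FDR 0.2503), and its PBS levels already ran from 44.3 to 266 CPM. C4b fell (log2FC −0.89, SE 0.19, FDR 0.000115) and C5ar1, the receptor for C5a on neutrophils and macrophages, rose (log2FC 2.40, SE 0.38, FDR 1.12e-06).

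Reactive astrocyte genes rose. Pan-reactive genes gave 9 of 13 higher, A1 genes 5 of 12 higher and 1 lower, and A2 genes 10 of 12 higher. Of all genes 21.3% were higher and 22.2% lower. Their medians were 1.83, 1.44 and 1.91 in females and 0.14, 0.01 and 0.16 in males. In the order of these lists, 0, 1 and 0 members were higher without replicates 4 and 5. Gfap measured 34.7, 50.9 and 85.2 CPM in the PBS eyes of the females and 237, 181 and 184 CPM in their treated eyes. In the males Gfap measured 152, 117 and 107 CPM in PBS eyes and 118, 202 and 119.9 CPM in treated eyes. Gfap, the intermediate filament of reactive glia, rose by 1.05 log2 units (SE 0.27, FDR 0.000989), with PBS levels higher in males than in females. Lcn2 measured 59.01, 91.6 and 89.97 CPM in the PBS eyes of the females and 532, 784 and 931 CPM in their treated eyes. In the males Lcn2 measured 624, 772 and 65.9 CPM in PBS eyes and 748, 467 and 359 CPM in treated eyes. Lcn2, an iron-binding protein of reactive astrocytes and neutrophils, rose over the 6 mice (log2FC 1.94, SE 0.55, FDR 0.00249), and male replicates 1 and 2 had levels in their PBS eyes as high as other mice had after treatment. Without replicates 1 and 2 the comparison called 10139 genes in place of 8768. Serpina3n, another pan-reactive marker, was not called (log2FC −0.78, FDR 0.3004).

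In the gp130 pathway, which passes signals of LIF and related cytokines to STAT3, 12 of 15 genes rose and 3 fell (median log2FC 0.82). Socs3, its feedback inhibitor, went from 17.6, 18.5 and 30.9 CPM to 129, 157 and 170.3 CPM in females and from 47.2, 50.8 and 29.2 CPM to 38.9, 45.8 and 36.1 CPM in males (male minus female −2.81, FDR 0.001104). Stat3 rose in females (log2FC 1.48) and had a log2FC of 0.10 in males (difference FDR 0.0136). Homeostatic genes of Müller glia, the radial support cells of the retina, gave 8 of 15 lower and 3 higher (median log2FC −0.37). With replicates 4 and 5 left out, the gp130 list gave 3 higher and 0 lower and the Müller glia list 2 lower and 0 higher. Glul measured 2770.3, 2317 and 1673 CPM in the PBS eyes of the females and 547, 675 and 783 CPM in their treated eyes. In the males Glul measured 1409, 996 and 2167 CPM in PBS eyes and 1048, 817 and 1265 CPM in treated eyes. Glul, the glutamine synthetase that clears glutamate, was lower in the treated eye of all 6 mice (log2FC −1.12, SE 0.20, FDR 5.37e-06), and its PBS levels were lower in males 1 and 2 than in the other mice. Rlbp1, the retinaldehyde carrier of Müller glia, fell by 0.94 log2 units (SE 0.16, FDR 2.58e-06), while Kcnj10, their potassium channel, was not called (log2FC 0.11, FDR 0.524). Edn2, an endothelin made by photoreceptors and glia under stress, rose by 1.46 log2 units (SE 0.30, FDR 6.52e-05) with no overlap between treated and PBS eyes.

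Genes of blood leukocytes were among the largest rises. Neutrophil genes gave 6 of 9 tested higher and 0 lower (median log2FC 3.10), and monocyte genes 8 of 12 higher and 0 lower (median log2FC 1.66). These counts were 4 and 2 without replicates 4 and 5. The summed level of the 12 neutrophil genes listed was 330, 688 and 637 CPM in treated eyes of females and 104, 233 and 134 CPM in those of males. Female PBS eyes held 10.5, 19.4 and 17.2 CPM and male PBS eyes 110, 104 and 5.57 CPM, so that male replicate 1 did not exceed its own PBS eye. Csf3r measured 4.78, 6.84 and 7.101 CPM in the PBS eyes of the females and 192, 348 and 323 CPM in their treated eyes. In the males Csf3r measured 39.4, 46.2 and 2.81 CPM in PBS eyes and 44.6, 124 and 85.2 CPM in treated eyes. Csf3r, the receptor for G-CSF, rose by 3.93 log2 units (SE 0.52, FDR 2.76e-08) and S100a8, a calcium-binding protein of neutrophils, rose by 3.76 log2 units (SE 0.67, FDR 7.71e-06). Camp and Ngp, granule genes of neutrophil precursors, were not called (log2FC −0.10 and 0.22, FDR 0.8095 and 0.808) and stayed under 1 CPM in every retina. Mylk2, a myosin kinase, had the largest rise of all named genes (log2FC 7.78, SE 1.76, FDR 0.000214), with 0, 0.0169 and 0.0179 CPM in PBS eyes and 16.7, 43.5 and 53.3 CPM in treated eyes of females and 0.101, 0.277 and 0 CPM and 0.495, 1.71 and 4.96 CPM in males. Prok2, Cd177, Cd101 and Tarm1, all expressed by neutrophils, were also among the 10 largest rises named (log2FC 5.65, 4.62, 4.57 and 4.07, with FDR 1.38e-05, 0.000147, 2.79e-07 and 1.97e-05). For those with PBS levels at or near 0 the fitted size depends on the prior count.

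Endothelial adhesion genes gave 0 of 8 higher and 2 lower (median log2FC 0.03), the latter a share near the 22.2% of all genes. Ackr1, a chemokine-binding receptor of venules, was among those that fell (log2FC −0.89, SE 0.21, FDR 0.000311), at 75.5, 77 and 72.3 CPM after PBS and 72.8, 12.7 and 10.7 CPM after treatment in females and 72.8, 82.3 and 71.4 CPM and 80.04, 74 and 68.6 CPM in males. Only the treated eyes of replicates 4 and 5 were low. Vcam1 and Icam1, which hold leukocytes to the vessel wall, were not called (log2FC −0.26 and 0.50, FDR 0.345 and 0.115). Blood-retina barrier genes gave 2 of 12 higher and 2 lower (median log2FC −0.02), no more than the shares of all genes, 21.3% and 22.2%. Leaving out replicates 4 and 5 gave 0 adhesion genes lower, and 2 barrier genes higher and 1 lower.

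Many genes of cell death rose. Apoptosis genes gave 19 of 32 higher and 5 lower, necroptosis genes 10 of 14 higher and 1 lower, and inflammasome and pyroptosis genes 10 of 12 higher and 0 lower. Their medians were 0.54, 1.13 and 2.05 in females and 0.06, 0.04 and 0.66 in males. Rises numbered 3, 1 and 6 without replicates 4 and 5. Ripk3 measured 0.303, 0.728 and 0.358 CPM in the PBS eyes of the females and 1.68, 3.01 and 2.72 CPM in their treated eyes. In the males Ripk3 measured 0.676, 0.814 and 0.383 CPM in PBS eyes and 0.883, 1.45 and 1.09 CPM in treated eyes. Ripk3, the kinase that starts necroptosis, was higher in the treated eye of all 6 mice with no overlap (log2FC 1.64, SE 0.31, FDR 1.97e-05), and its effector Mlkl rose by 1.22 log2 units (SE 0.29, FDR 0.0003899). Casp8, which lies between TNF receptors and both forms of death, went from 3.55, 4.05 and 3.202 CPM to 8.47, 13.7 and 14.9 CPM in females and from 4.903, 5.695 and 3.102 CPM to 5.03, 5.98 and 5.58 CPM in males (difference FDR 0.0218). The pore-forming Gsdmd rose by 1.02 log2 units (SE 0.21, FDR 5.31e-05). Nlrp3, the sensor of the best-known inflammasome, rose by 2.37 log2 units (SE 0.35, FDR 3.09e-07), from 0.541, 0.4403 and 0.554 CPM to 3.82, 6.78 and 8.34 CPM in females and from 2.57, 2.11 and 0.421 CPM to 1.82, 4.89 and 2.85 CPM in males.

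In injured RGCs the kinases DLK and JNK activate JUN. The list of these kinases, which also holds the scaffold gene Mapk8ip1, gave 8 of 10 lower and 0 higher (median log2FC −0.31). Of the 10 genes, 8 had a called sex difference, each with a higher log2FC in males. AP-1 family genes gave 10 of 14 higher and 1 lower (median log2FC 0.88). Jun measured 45.3, 48.5 and 58.7 CPM in the PBS eyes of the females and 138, 162 and 189 CPM in their treated eyes. In the males Jun measured 53.5, 60.8 and 59.5 CPM in PBS eyes and 52.7, 63.6 and 62.5 CPM in treated eyes. Jun rose in the females (log2FC 1.64, FDR 2.46e-05) and had a log2FC of 0.04 in the males, and the male minus female difference was −1.60 (SE 0.17, FDR 0.000872). Atf3, an injury-induced partner of JUN, had a log2FC of 2.77 in females and 0.09 in males (difference FDR 0.00453). RGC injury genes gave 13 of 18 higher and 1 lower (median log2FC 0.74). Taking out replicates 4 and 5 gave 1 gene of the kinase list lower and 1 AP-1 and 1 injury gene higher. Ecel1, a protease of injured neurons, was higher in all 6 treated eyes than in any PBS eye (log2FC 2.12, SE 0.30, FDR 1.35e-07), at 0.519, 0.559 and 0.644 CPM and 1.84, 6.39 and 7.06 CPM in females and 0.834, 0.518 and 0.574 CPM and 1.502, 1.73 and 1.59 CPM in males. Sprr1a, a growth-associated protein of regenerating axons, rose by 1.78 log2 units (SE 0.55, FDR 0.006404), with a log2FC of 3.48 in females and −0.09 in males, a difference that was not called (FDR 0.112).

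Most stress genes that changed rose. ATF4 and ER stress genes gave 13 of 17 higher and 0 lower, oxidative stress and iron genes 13 of 22 higher and 4 lower, and p53 targets 7 of 12 higher and 1 lower. Their medians were 0.38, 0.27 and 0.34. Of all genes 21.3% were higher and 22.2% lower. Rises in the 3 stress lists were 0, 4 and 3 without replicates 4 and 5. Derl3, which moves misfolded proteins out of the endoplasmic reticulum, was at 0.6703, 0.948 and 1.27 CPM and 1.24, 12.1 and 19.1 CPM in females and 1.01, 1.04 and 1.19 CPM and 1.08, 0.644 and 2.21 CPM in males (log2FC 1.48, SE 0.41, FDR 0.00235). Its levels in treated replicates 4 and 5 stood far above those of the other 10 retinas. Cdkn1a, the cell cycle inhibitor p21, rose by 1.78 log2 units (SE 0.32, FDR 9.20e-06), with 13.8, 55.2 and 59.4 CPM in treated eyes of females and 5.49, 9.95 and 10.6 CPM in those of males against PBS levels of 3.96 to 5.88 CPM. Mt2, a metal-binding protein, rose in females (log2FC 2.44) and had a log2FC of 0.14 in males (difference FDR 0.00273).

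The NAD metabolism genes belong to the pathway in which SARM1 acts. Of 19 tested, 5 rose and 4 fell (median log2FC 0.09), shares near the 21.3% and 22.2% of all genes. Their counts were 2 and 1 without replicates 4 and 5. Nmnat2 measured 54.9, 56.8 and 54.9 CPM in the PBS eyes of the females and 29.1, 8.1 and 9.801 CPM in their treated eyes. In the males Nmnat2 measured 50.7, 51.7 and 55.2 CPM in PBS eyes and 50.1, 43.9 and 44.3 CPM in treated eyes. Nmnat2 was lower in the treated eye of all 6 mice, with no overlap (log2FC −1.09, SE 0.17, FDR 1.24e-06), and the log2FC was −2.09 in females and −0.19 in males (difference FDR 0.00789). In the 5 paired WT mice of batch 2 it ran from 50.5 to 58.2 CPM after PBS and from 27.7 to 46.9 CPM after treatment, so that treated females 4 and 5 of the Sarm1-/- genotype lay below every one of these. Cd38, an NAD-consuming enzyme of leukocytes, rose by 1.65 log2 units (SE 0.28, FDR 2.57e-06), from 3.07, 5.52 and 4.49 CPM to 15.4, 33.5 and 24.7 CPM in females and from 5.09, 5.103 and 3.08 CPM to 5.78, 8.76 and 7.79 CPM in males. Nadk, which makes NADP from NAD, was higher in the treated eye of all 6 mice (log2FC 0.54, SE 0.09, FDR 1.37e-06). Nampt, which recycles nicotinamide, was not called over all mice (log2FC 0.31, FDR 0.0679) and differed between the sexes (log2FC 0.78 in females and −0.19 in males, difference FDR 0.000783).

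Neuronal genes fell, and the fall was larger in the females. RGC identity genes gave 19 of 19 lower and 0 higher, beside 22.2% of all genes lower, with a median of −2.27 in females and −0.14 in males. The sex difference was called for all 19 and the 3-way difference for all 19. Without either female 4 or female 5 alone all 19 were still called lower, and without both it was 6 of 19. Over all genes, 3246 of 20295 were lower without female 4, 3564 of 20303 without female 5 and 436 of 20459 without both. Summed over the list, the treated eyes of females held 532, 223 and 192 CPM and those of males 1122, 1027 and 956 CPM, where the 6 PBS eyes held 1084 to 1199 CPM. Pou4f1 measured 29.6, 28.4 and 28.6 CPM in the PBS eyes of the females and 12.2, 3.01 and 2.56 CPM in their treated eyes. In the males Pou4f1 measured 27.1, 29.97 and 31.1 CPM in PBS eyes and 28.2, 25.6 and 23.6 CPM in treated eyes. Pou4f1, the RGC transcription factor BRN3A, fell by 1.32 log2 units (SE 0.21, FDR 8.64e-07), with a log2FC of −2.68 in females (FDR 0.000296) and −0.18 in males (FDR 0.9998). Rbpms, the RNA-binding protein used to count RGCs, was at 34.9, 38.98 and 34.6 CPM and 14.8, 12.4 and 10.4 CPM in females and 33.3, 29.5 and 32.7 CPM and 31.02, 24.5 and 27.8 CPM in males (log2FC −0.85, SE 0.11, FDR 2.75e-08). Nefl, the light neurofilament of their axons, was at 281, 277 and 271 CPM and 149, 52.6 and 42.6 CPM in females and 264, 276 and 299.9 CPM and 266, 255 and 232 CPM in males (log2FC −1.08, SE 0.19, FDR 7.14e-06). Chrna6, a nicotinic receptor of RGCs, had the largest fall of the list (log2FC −1.82, SE 0.29, FDR 1.12e-06) and Nefh, the heavy neurofilament, the smallest (log2FC −0.38, SE 0.09, FDR 0.000229).

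The fall was not limited to RGC genes. Amacrine genes gave 13 of 14 lower (median log2FC −1.05), horizontal cell genes 7 of 8 lower and 1 higher (median log2FC −0.94), and bipolar cell genes 12 of 14 lower (median log2FC −1.12). Female medians were −2.09, −2.01 and −2.26, and male medians −0.16, −0.04 and 0.00027. Falls numbered 3, 2 and 0 without replicates 4 and 5. Chat measured 10.2, 9.62 and 12.3 CPM in the PBS eyes of the females and 4.44, 0.613 and 1.3 CPM in their treated eyes. In the males Chat measured 10.1, 11.6 and 12.2 CPM in PBS eyes and 10.5, 8.57 and 9.57 CPM in treated eyes. Chat, the enzyme of cholinergic amacrine cells, fell by 1.42 log2 units (SE 0.23, FDR 1.65e-06). Grm6, the glutamate receptor of ON bipolar cells, went from 143, 133 and 134 CPM to 90.6, 9.53 and 9.38 CPM in females and from 123, 115 and 131 CPM to 125, 103 and 112 CPM in males (log2FC −1.42, SE 0.28, FDR 2.91e-05). In both genes the treated eyes of replicates 4 and 5 were far lower than that of replicate 3, and all 3 males stayed close to their PBS eyes.

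Genes for neuronal signaling fell with the cell type genes. Receptors for glutamate, GABA and glycine gave 32 of 34 lower and 1 higher, voltage-gated channels 26 of 30 lower and 0 higher, and synaptic vesicle and ribbon genes 18 of 22 lower and 0 higher. Medians in females were −2.22, −2.11 and −1.01, against −0.05, −0.05 and −0.07 in males. In these lists the falls were 1, 1 and 2 without replicates 4 and 5. The 1 receptor gene that rose was Grik4, of the kainate class (log2FC 0.39, SE 0.10, FDR 0.000883). Scn4b, a sodium channel subunit, fell by 2.05 log2 units (SE 0.32, FDR 8.61e-07), with 1.17, 0.334 and 0.26 CPM left in treated females and 10.3, 7.29 and 8.82 CPM in treated males. Cplx1, a complexin that clamps vesicle fusion in the inner retina, fell by 1.32 log2 units (SE 0.21, FDR 1.25e-06), while Ctbp2, which encodes the ribbon protein RIBEYE, was not called (log2FC 0.06, FDR 0.347).

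Photoreceptor genes fell too, with medians over all mice nearer 0 than those of RGC, amacrine, horizontal and bipolar genes. This order did not hold in every mouse. In female replicate 3 the median log2 difference was −1.12 for rod and −1.28 for cone genes. It was −1.26 for RGC, −0.66 for amacrine, −0.52 for horizontal and −0.54 for bipolar genes. Rod genes gave 13 of 17 lower (median log2FC −0.45) and cone genes 10 of 11 lower and 1 higher (median log2FC −0.65), with −0.78 and −1.10 in females and −0.14 and −0.17 in males. Rod genes numbered 6 and cone genes 4 lower without replicates 4 and 5. Arr3 measured 225, 201 and 185 CPM in the PBS eyes of the females and 18.6, 23.3 and 21.7 CPM in their treated eyes. In the males Arr3 measured 106, 148 and 212 CPM in PBS eyes and 110.1, 56.3 and 72.6 CPM in treated eyes. Arr3, the cone arrestin, had the largest fall of the cone list (log2FC −2.09, SE 0.29, FDR 5.61e-08), with a log2FC of −3.30 in females and −0.96 in males (difference FDR 0.00509). Opn1mw, the green cone pigment, fell by 1.07 log2 units (SE 0.21, FDR 3.15e-05). Unlike Chat and Grm6, Arr3 was as low in treated replicate 3 as in replicates 4 and 5.

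**Figure D4:**
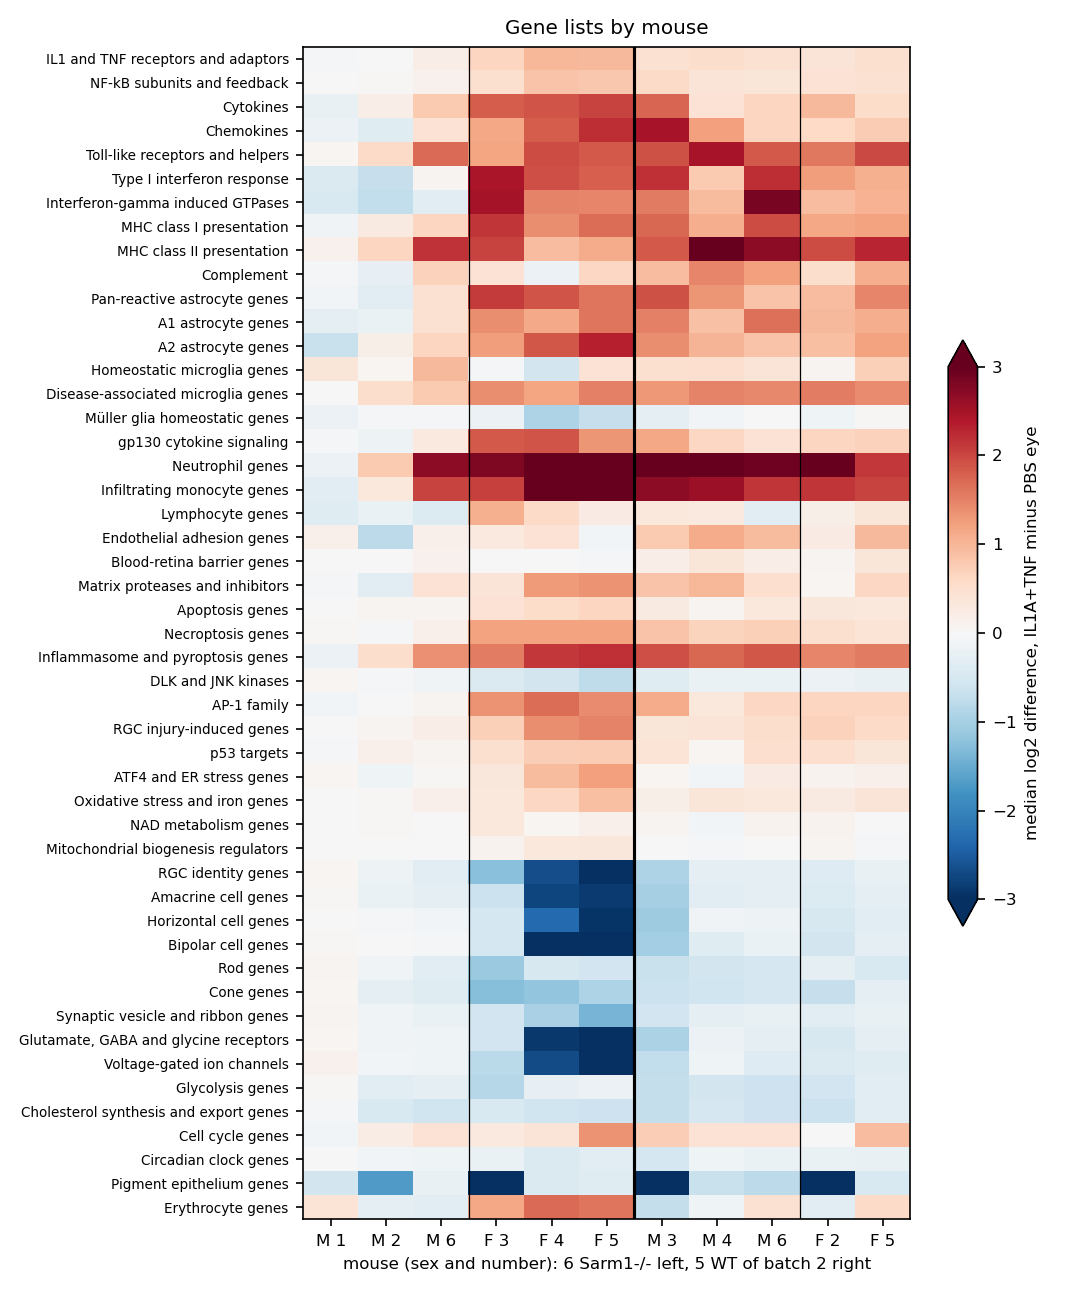
Median log2 difference between the IL1A+TNF and the PBS eye (color) for gene lists (vertical axis) in each mouse (horizontal axis), with the 6 Sarm1-/- mice on the left and the 5 paired WT mice of batch 2 on the right. Lists of inner retinal neurons are lowest in Sarm1-/- females 4 and 5, rod and cone lists are lowest in female 3, and interferon lists are raised in the 3 Sarm1-/- females and near 0 or below in the Sarm1-/- males.

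Glycolysis genes, on which photoreceptors depend, gave 13 of 20 lower and 1 higher (median log2FC −0.29). Glycolysis counts were 4 and 0 without replicates 4 and 5. Hk2, the hexokinase of photoreceptors chosen after its values were seen, went from 550.5, 583 and 612 CPM to 292, 341 and 334 CPM in females and from 718, 683 and 739.8 CPM to 763, 519 and 648 CPM in males (log2FC −0.51, SE 0.14, FDR 0.00153). Regulators of mitochondrial biogenesis gave 8 of 12 higher and 2 lower (median log2FC 0.13). Regulators numbered 0 higher and 1 lower without replicates 4 and 5. Nrf1, a transcription factor for respiratory chain genes, rose by 0.14 log2 units (SE 0.04, FDR 0.00593).

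Pigment cell genes were among the 10 largest falls named. Tyrp1, Pmel, Dct and Mlana belong to melanin synthesis or the melanosome, and they mark pigment epithelium that can adhere to a dissected retina. Tyrp1 measured 90.6, 242 and 117 CPM in the PBS eyes of the females and 18.3, 8.04 and 12.2 CPM in their treated eyes. In the males Tyrp1 measured 64.2, 61.02 and 137 CPM in PBS eyes and 36.2, 0.957 and 73.2 CPM in treated eyes. Tyrp1 was lower in the treated eye of all 6 mice (log2FC −3.05, SE 0.85, FDR 0.00221), and so was Pmel (log2FC −3.04, SE 0.86, FDR 0.00261). The levels varied widely between eyes of one group, most of all among treated males. Of 11 pigment epithelium genes 5 fell and 0 rose, beside 22.2% and 21.3% of all genes. Their sum ran from 302 to 989 CPM in PBS eyes and from 27.1 to 369 CPM in treated eyes. Of the 11, 0 were lower without replicates 4 and 5. Whether the amount of attached pigment epithelium moved these values was not tested. Edn3, an endothelin, had the largest fall of all named genes (log2FC −3.06, SE 0.87, FDR 0.00277), from 19.98, 77.9 and 14.3 CPM to 0.986, 1.096 and 1 CPM in females and from 1.77, 2.66 and 8.08 CPM to 1.11, 0.1104 and 10.97 CPM in males, with replicate 6 higher in its treated eye.

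The response of Sarm1-/- retinas shared much with that of WT retinas, which was fitted with 36 PBS and 16 IL1A+TNF retinas of both batches. In WT retinas limma called 5606 genes higher (27.8%) and 5437 lower (27%), against their own PBS retinas, which the Sarm1-/- comparison did not share. Of the genes higher in Sarm1-/- retinas, 3594 were also higher in WT retinas, 83.8% of the Sarm1-/- and 64.1% of the WT list. Of those lower, 2982 were lower in both, 66.6% of the Sarm1-/- and 54.8% of the WT list. The difference between the genotypes was called for 1763 genes, 304 with a higher (1.51%) and 1459 with a lower log2 fold change in Sarm1-/- retinas (7.24%). Among neuronal lists, a lower change was called for 15 of 19 RGC identity genes, 10 of 14 amacrine, 4 of 8 horizontal and 4 of 14 bipolar cell genes, 23 of 34 receptor genes, 18 of 30 channel genes (1 higher) and 7 of 22 synaptic genes. It was called for 0 of 17 rod genes (1 higher) and 0 of 11 cone genes. The RGC list had a median of −1.13 in Sarm1-/- and −0.30 in WT retinas.

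This count changed with the retinas and the tool used. In batch 2 alone limma and edgeR called 0 genes (1125 and 1260 at an unadjusted p under 0.05) and DESeq2 13, and without female replicate 4 limma called 0 genes and without female replicate 5 it called 15. In the 81 retinas edgeR called 181 genes and DESeq2 430. By sex, the difference from WT was called for 5337 genes in females and 372 in males, and for 1651 and 0 in batch 2 alone. For Pou4f1 (difference in log2FC −1.06, SE 0.23, FDR 0.00559) the 5 paired WT mice of batch 2 held 26.1 to 28.5 CPM after PBS and 15.1 to 24.7 CPM after treatment, above treated Sarm1-/- females and below or among treated Sarm1-/- males.

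**Figure D5:**
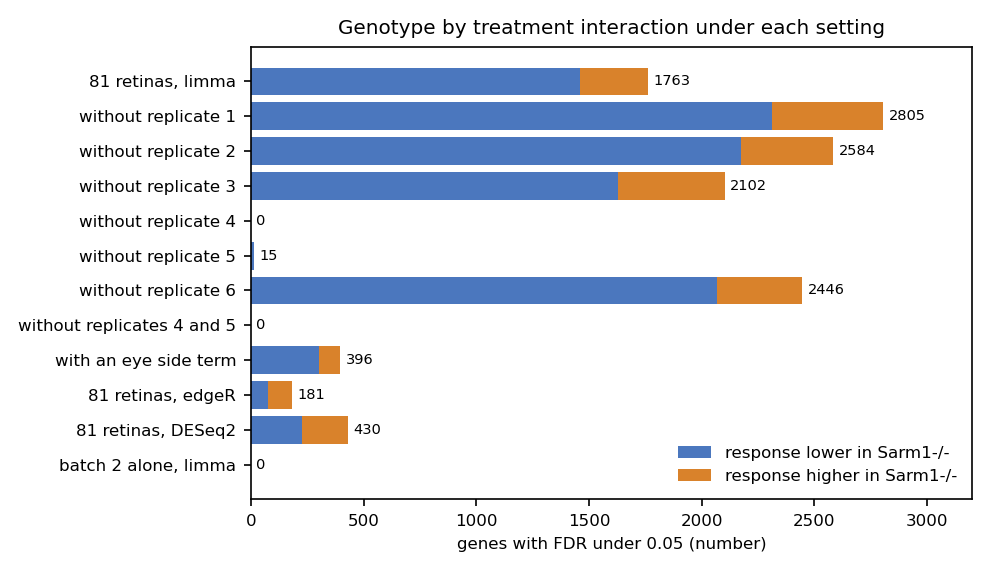
Number of genes (x axis) with a called difference between the Sarm1-/- and the WT response to IL1A+TNF, for each way of testing (y axis). The count is 1763 in the fit of 81 retinas and 0 in batch 2 alone or without female replicate 4.

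Of the 10 genes with the smallest FDR for the difference between genotypes, Rprm, an arrest gene induced by p53, came first (difference in log2FC −1.65, SE 0.27, FDR 0.00108). Rprm measured 3.46, 3.997 and 4.4 CPM in the PBS eyes of the females and 2.78, 0.725 and 0.36 CPM in their treated eyes. In the males Rprm measured 4.14, 4.99 and 3.93 CPM in PBS eyes and 4.68, 6.15 and 2.73 CPM in treated eyes. It fell in Sarm1-/- retinas (log2FC −1.0), with the lowest levels in treated replicates 4 and 5, and rose in WT retinas (log2FC 0.65, FDR 6.71e-06). Rab15, an endosomal GTPase of neurons (difference in log2FC −0.77), Pcsk1, a prohormone convertase (−1.32), and Bdnf, a neurotrophin for RGCs (−0.88), were also lowest in treated replicates 4 and 5. Bdnf measured 10.9, 13.3 and 13.2 CPM in the PBS eyes of the females and 7.14, 2.92 and 5.601 CPM in their treated eyes. In the males Bdnf measured 11.7, 15.6 and 13.7 CPM in PBS eyes and 11.1, 11.3 and 10.2 CPM in treated eyes. Bdnf fell by 0.82 log2 units in Sarm1-/- retinas (FDR 7.91e-06) and was not called in WT retinas (log2FC 0.05, FDR 0.609). A pair of interferon genes was in this group. Ifi44 was at 1.02, 1.25 and 1.04 CPM and 3.05, 0.817 and 1.2 CPM in females and 1.31, 4.42 and 2.32 CPM and 0.883, 4.73 and 1.95 CPM in males, while the paired WT mice of batch 2 held 0.743 to 2.095 CPM after PBS and 4.33 to 7.396 CPM after treatment (difference in log2FC −2.30, SE 0.42, FDR 0.00223). Ifit2, a translation-blocking interferon product, was at 18.1, 24.3 and 23.5 CPM and 44.2, 23.5 and 24.3 CPM in females and 25.1, 39 and 25.9 CPM and 24.4, 51.9 and 26.5 CPM in males, against 21.8 to 25.8 CPM and 49.97 to 87.4 CPM in the paired WT mice (difference in log2FC −1.28, SE 0.24, FDR 0.00263). Treated and PBS eyes of these WT mice did not overlap for either gene, and among the Sarm1-/- mice replicate 3 showed the largest difference for both. Microglial Cx3cr1 (difference in log2FC −0.75, FDR 0.0219) and C1qa (difference −0.72, FDR 0.0242), and Il1r1 (difference −0.67, FDR 0.0128), also had a lower change in Sarm1-/- than in WT retinas. Hmox1 (difference in log2FC −0.33, SE 0.44, FDR 0.709) and the cholesterol genes, 0 of 21, had no called difference between the genotypes.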

How the data were processed

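RNA was sequenced from whole retinas, and the authors deposited a table of counts per gene, made with STAR 2.7.9a and featureCounts of Subread 2.0.1 on mm10 per the methods and the submitters' processing notes. The strand setting and annotation release are not given in the sources used here, so values of overlapping, antisense and near-identical genes are uncertain. Of 37315 genes, 35533 were matched to a GENCODE M21 symbol. Of the 109 retinas, the 81 collected on day 2 were fitted, WT retinas given IL1A alone or TNF alone included. All columns were mapped to samples, and groups were taken from the labels.

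Counts were filtered (filterByExpr, minimum count 10, minimum total 15, proportion 0.7, large groups 10), scaled by TMM and fitted with limma 3.58.1 on voom weights in R 4.3.3, with group, sex and batch as terms and mouse as a random block (correlation 0.00525, 2 rounds, statmod 1.5.0), which is how tests named limma below were run unless stated. FDR is Benjamini-Hochberg over all genes tested, with 0.05 as the threshold. Effects within each sex were fitted in the 12 Sarm1-/- retinas (18633 genes). edgeR 4.0.16 (quasi-likelihood) and DESeq2 1.42.0 were alternatives, and scripts were tested on simulated data. CPM used TMM-scaled totals. P-values of the main fit rest on the spread among all day-2 retinas, most of them WT, and not on that of the Sarm1-/- mice alone. P-values of fits within the 12 Sarm1-/- retinas rest on the spread among those retinas. Counts do not show molecules, since reads carried no molecular identifiers.

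Eyes with one number came from the same animal, so the numbers pair the samples. Same-mouse deviations correlated at −0.27 to 0.15 (median 0.064, other mice −0.00076, 1 of 6 above 0.1). No pair of libraries was a duplicate (lowest chi-square per gene 14.4 over 30 pairs within groups).

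The comparison, the 50 gene lists (774 of 799 entries tested, 740 of 765 distinct genes) and the named genes were chosen with earlier results of these data known. Named were, among genes with an FDR under 0.05 and a mean of at least 1 CPM, the 10 with the smallest FDR, the 10 largest rises and the 10 largest falls, a fixed set of 56 genes, the 2 highest and 2 lowest members of each list, and the 10 genes with the smallest FDR for the difference between genotypes. Fits by sex in 81 retinas and other alternatives were added after seeing the data. Promoter windows came from RefSeq (GRCm38.p6). Some genes that this rule names are not reported here.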

Additional observations from a re-analysis of the deposited data

Results flagged for a closer look

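In 7 of 146 groups of 6 values checked, one retina lay far from the other 5, where chance gives about 1 in 20 (4 in PBS and 3 in IL1A+TNF retinas). Summed lens genes were 6679 CPM in the PBS eye of replicate 1 and 7516 CPM in the treated eye of replicate 5. Summed lymphocyte genes were 4.20 CPM in the PBS eye of replicate 2. Among single genes, Ccl2 stood at 12.2 CPM in the PBS eye of replicate 1 and Il1r1 at 18.3 CPM in that of replicate 3. Trem2 stood at 7.23 CPM in the treated eye of replicate 6 and Vcam1 at 69.7 CPM in that of replicate 1.

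Effects differed between groups by a test of the difference itself. The log2FC differed between Sarm1-/- and WT retinas for 1763 genes, between male and female Sarm1-/- retinas for 5390 genes, and in the 3-way comparison of genotype, treatment and sex for 5539 genes. Of the 56 fixed genes, 10 differed between the genotypes and 33 between the sexes. The 10 genes with the smallest FDR for the genotypes were Rprm (difference in log2FC −1.65), Rab15 (−0.77), Pcsk1 (−1.32), Ifi44 (−2.30), Dbpht2 (−0.93), Fam49a (−0.36), Cyyr1 (−1.15), Ifit2 (−1.28), Bdnf (−0.88) and Rtl5 (−0.48), each lower in Sarm1-/- retinas. Sex and treated side coincided in all Sarm1-/- mice but male replicate 2.

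Outside the comparisons, Xist was at 167 CPM in the IL1A+TNF retina of male replicate 6, where the Y-linked gene Ddx3y was at 77.6 CPM. The source of this RNA was not tested. Without replicate 6 the comparison of IL1A+TNF with PBS called 8860 genes.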

How the results depend on the processing

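The count of 8768 genes stayed within 1.5 times under other filters, RLE scaling, DESeq2, edgeR, no replicate block, no sex term, an eye side term and batch 2 alone with limma or DESeq2 (6064 to 9393). With library totals in place of TMM, 60.1% of the calls were higher in place of 48.9%, and the median log2FC of all genes moved from 0.01 to 0.07. It was 879 in the 12 retinas alone, 5834 with edgeR in batch 2, 995 without replicates 4 and 5, 5736 to 9633 without 1 mouse (lowest without replicate 4), and 1883 at a log2FC of at least 1. With the replicate block (mouse fixed) it was 0 in limma and 0 in edgeR, and 3593 in batch 2 alone. The 1763 genes differing between genotypes became 181 with edgeR, 430 with DESeq2 and 396 with an eye side term. In batch 2 alone this count was 0 with limma, 0 with edgeR and 13 with DESeq2. With mouse fixed there as a replicate block it was 0 (713 at an unadjusted p under 0.05). It was 0 without replicates 4 and 5 and 4063 without replicates 1 and 2. Without 1 Sarm1-/- mouse it ran from 0 to 2805, and without 1 WT mouse of batch 2 from 1689 to 2182. The 5390 genes differing between sexes became 3387 (limma) and 2882 (edgeR) with the replicate block, and 911 to 7485 without 1 mouse. The mean difference in genes detected (72.2) turned to −112.6 and −43.8 without replicates 3 and 6 (−112.6 to 207.8 without 1 mouse). The cause of these changes was not tested. For 83 named genes, 1704 of the values under alternatives kept the call or the lack of it, 260 lost the call and 17 gained it. With a call, 0 changed direction. The losses were concentrated in a few settings. In the 12 retinas alone 40 genes were unchanged and 40 lost the call. With mouse fixed there, 13 were unchanged and 67 lost it, in limma and in edgeR alike. Without replicates 4 and 5, 46 were unchanged and 37 lost it. With 3 mice of each sex, treated largely on different sides, and WT retinas mostly of another batch, sex, side, batch and single mice limit every comparison here.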

Other observations

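Matrix proteases and their inhibitors gave 9 of 16 higher and 0 lower (median log2FC 0.60). Mmp9 measured 18.9, 18.7 and 22.8 CPM in the PBS eyes of the females and 151, 567.7 and 521 CPM in their treated eyes. In the males Mmp9 measured 45.3, 44.3 and 20.1 CPM in PBS eyes and 43.8, 135 and 99.8 CPM in treated eyes. Mmp9, a gelatinase of neutrophils and reactive cells, rose by 2.73 log2 units (SE 0.34, FDR 6.96e-09), and male replicate 1 was the mouse without a higher level in the treated eye. Timp1, the inhibitor of these proteases, rose by 1.57 log2 units (SE 0.34, FDR 0.000125). Mmp3 measured 1.64, 2.201 and 2.29 CPM in the PBS eyes of the females and 1.52, 94.4 and 195 CPM in their treated eyes. Mmp3, stromelysin, was called over the 6 mice (log2FC 2.73, SE 0.93, FDR 0.0131), with the highest levels in treated replicates 4 and 5. Siglecf, a lectin of eosinophils, was higher in every treated eye than in any PBS eye (log2FC 4.56, SE 0.56, FDR 6.22e-09), with 24.9, 40.1 and 40.03 CPM in treated females and 4.098, 13.1 and 12.7 CPM in treated males.

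Cell cycle genes gave 8 of 17 higher and 0 lower (median log2FC 0.41). Ccnd1, cyclin D1, which drives entry into the cell cycle, was at 26.4, 25.4 and 34.1 CPM after PBS and 67.9, 184 and 179.8 CPM after treatment in females and at 41.2, 33.8 and 27.8 CPM and 31.6, 29.6 and 34.8 CPM in males (male minus female −2.27, FDR 0.0105). Mki67, a marker of dividing cells, was not called (log2FC 0.77, FDR 0.0661). Circadian clock genes gave 10 of 17 lower and 0 higher (median log2FC −0.19), led by Hlf (log2FC −0.91, SE 0.16, FDR 6.66e-06), while Arntl, which encodes the core clock factor BMAL1, was not called (log2FC 0.04, FDR 0.555). Hlf was at 214, 64.7 and 72.9 CPM in treated females and 281, 252 and 274 CPM in treated males, where PBS eyes held 286 to 335 CPM.

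Of 5 erythrocyte genes 3 rose and 0 fell (median log2FC 0.87), and the sum over the 7 genes listed was 79.4, 97.4 and 49.2 CPM in treated females, 19.9 to 23.2 CPM in treated males and 15.8 to 33.0 CPM in PBS eyes. Lymphocyte genes gave 1 of 7 higher and 0 lower, no more than the 21.3% and 22.2% of all genes (median log2FC 0.16). Their sums were 2.30 to 5.70 CPM in treated and 2.64 to 4.20 CPM in PBS eyes. Lens genes gave 0 of 13 called by limma, with 0 at an unadjusted p under 0.05 (median log2FC 1.79). Without replicates 4 and 5, limma called 1 matrix gene and 0 cell cycle genes higher, 0 clock genes lower, and 0 erythrocyte and 0 lymphocyte genes higher.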
